A study of Mus musculus with 19 samples.

Results

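The solute carriers are described here: the genes whose symbol starts with Slc and a number and whose probes rose above the array's background. Members were chosen by their detection p-values: at least 1 probe of the gene had to lie under 0.01 on 3 or more of the 19 arrays. Of 326 such genes on the array, 169 met this, out of 9422 features that passed the same test. By symbol alone the 169 include 4 genes classed as not carriers (Slc4a1ap, Slc7a6os, Slc9a3r1 and Slc9a3r2). They stay in all counts of members, and in ethanol 1 of them was higher and 2 were lower in EpiLC than in ESC. Detection is part of the measured values, so the choice of members favours genes that were bright in at least 1 group.

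The samples are mouse embryonic stem cells (ESC), held in the naive state of pluripotency, and epiblast-like cells (EpiLC), the state that follows when ESC leave it. The 4 groups hold 3 samples each: EpiLC given tamoxifen, EpiLC given ethanol, ESC given tamoxifen and ESC given ethanol. Tamoxifen, at 1 µM for 36 h, was used to induce the knockout of the forkhead transcription factor Foxd3, and ethanol, its solvent, stood for the wild type. All cells shared a serum medium (Knockout DMEM) with antibiotics, glutamine and non-essential amino acids, and ESC also received Lif and inhibitors of GSK and MEK, so that cell type and medium cannot be told apart. The labels name neither the line or clone nor the Cre that tamoxifen activates, no untreated or Cre-free tamoxifen group is among the samples, and effects of tamoxifen itself cannot be told apart from those of the deletion. Total RNA was read on an Illumina bead array. All comparisons use log2 normalized intensity, 1 value per sample, and each change given is a difference of log2 group means with the standard error (SE) of the fit over 3 samples per group.

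Solute carriers move sugars, amino acids, ions, vitamins, lipids and metabolites across the plasma membrane and the membranes of organelles. They are numbered in families by sequence, and members of a family often share a kind of substrate but not a tissue. In early embryonic cells they are known for glucose uptake, for the amino acid supply of growing cells and for the import of metabolites into mitochondria. Classes of substrate were assigned by family number, and by gene in some families, such as family 5. Other families were kept whole, so a class can hold members with another substrate. The sulfate carrier Slc13a4 was thus counted with the carboxylates, and Slc29a4, which carries monoamines, with the nucleosides. The amino acid carriers Slc6a7 and Slc6a15 were counted with neurotransmitters and osmolytes.

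An array detected 40.2 to 44.7% of its 25697 probes. Median intensity was 149 to 176 on the 11 arrays of hybridization round 1 and 190.3 to 220 on the 8 arrays of round 2, and 7 samples were read in both rounds. In ESC, arrays of tamoxifen samples had higher medians than those of ethanol samples within each round, before normalization. None of the 19 arrays detected the Foxd3 probe (its detection p-value was 0.239 at the lowest), so the knockout rests on the labels. The cell type labels were checked on markers: 7 of 8 tested naive genes were lower and 7 of 7 tested formative genes higher in EpiLC than in ESC in ethanol. Of 8 fibroblast genes, the collagen genes Col1a1, Col1a2 and Col3a1 among them, 6 were detected on 0 arrays. Of the other 2, Dcn was detected on 8 EpiLC arrays and 0 ESC arrays and was higher in EpiLC in ethanol (adjusted p = 0.000227), and Thy1, on all 19 arrays, was lower (-0.56 (SE 0.21, adjusted p = 0.0421)); their part in the results was not tested.

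Of the 169 members, 108 were detected on all 19 arrays. A further 7 were seen on EpiLC arrays and on no ESC array, and 16 on ESC arrays and on no EpiLC array. These 23 could pass the rule only through the cell type in which they were brighter. Their p-values between the cell types are thus not independent of the choice of members. Among the 23, Slc26a9, Slc4a1, Slc4a11 and Slc7a8 were detected on tamoxifen ESC arrays alone. Some members seen in both cell types, such as Slc22a23 and Slc32a1 with 1 ESC array each, also reached 3 arrays only through 1 cell type, with the same limit. At the edge of the rule, 7 genes were detected on 3 arrays (Slc13a3, Slc19a3, Slc25a22, Slc25a34, Slc4a11, Slc5a4b and Slc7a8). Mean raw intensities of these 7 were 158 to 213 over the 4 groups. Another 4 were detected on 2 arrays and left out (Slc1a7, Slc25a27, Slc25a45 and Slc35f6), with means of 162 to 209, so the brightness of the 2 sets overlapped. Of the remaining solute carrier genes, 9 were detected on 1 array and 144 on 0 arrays. The undetected probes include those of Slc16a1, the monocarboxylate carrier MCT1, of Slc3a2, the heavy chain partner of the Slc7 light chains, and of Slc7a11, the cystine carrier; Slc1a5, a carrier of neutral amino acids, was detected on 1 array. A probe at background gives no level, so no value is given for these 4 genes.

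The probes of highest mean intensity among the members belonged to Slc25a5, the mitochondrial exchanger of ADP and ATP (mean 14.19 over the groups, log2 normalized intensity), the glucose carriers Slc2a3 and Slc2a1, the cationic amino acid carrier Slc7a3 and the large neutral amino acid carrier Slc7a5. Slc25a3, the mitochondrial phosphate carrier, the taurine carrier Slc6a6, Slc25a20, Slc25a38 and Slc35b1 completed the highest 10. Probes differ in how well they bind, so this order does not rank transcripts. Slc25a5 was at 14.21, 14.12 and 14.07 in tamoxifen EpiLC, 14.18, 14.20 and 14.13 in ethanol EpiLC, 14.25, 14.31 and 14.31 in tamoxifen ESC and 14.14, 14.19 and 14.18 in ethanol ESC. All 12 values lie within a narrow band, and the fitted change between the cell types in ethanol was 0.00 (SE 0.07, adjusted p = 0.989).

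EpiLC and ESC differed in most solute carriers, and the differences ran both ways. In ethanol, 49 of 169 members were higher and 58 lower in EpiLC at an adjusted p under 0.05 (limma, Benjamini-Hochberg over all 9422 features, n = 3 per group), that is 29% and 34.3%. Over all features the shares were 29.8% higher and 26.5% lower. The median change was -0.05 over the members and 0.03 over all features, on the log2 scale. Among the 108 members detected on all 19 arrays, 30 were higher and 35 lower, which is 27.8% and 32.4%, beside 28.2% and 25.8% of the 6884 features so detected. In tamoxifen, 51 members were higher and 60 lower in EpiLC (30.2% and 35.5%), beside 29.4% and 27.1% of all features. Of the 107 members called in ethanol and the 111 called in tamoxifen, 92 were called the same way in both, and 0 in opposite ways. These 2 comparisons share no samples. The matching overlap over all features was not counted, so this overlap cannot be read as particular to the members. With round 1 arrays alone 92 members were called in ethanol and 106 in tamoxifen, beside 4506 and 4896 of 9422 features. With round 2 arrays alone, which hold no ethanol EpiLC, 101 were called in tamoxifen, beside 4970 features. In bulk RNA a lower value cannot tell fewer cells with a transcript from less of it per cell.

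**Figure D1:**
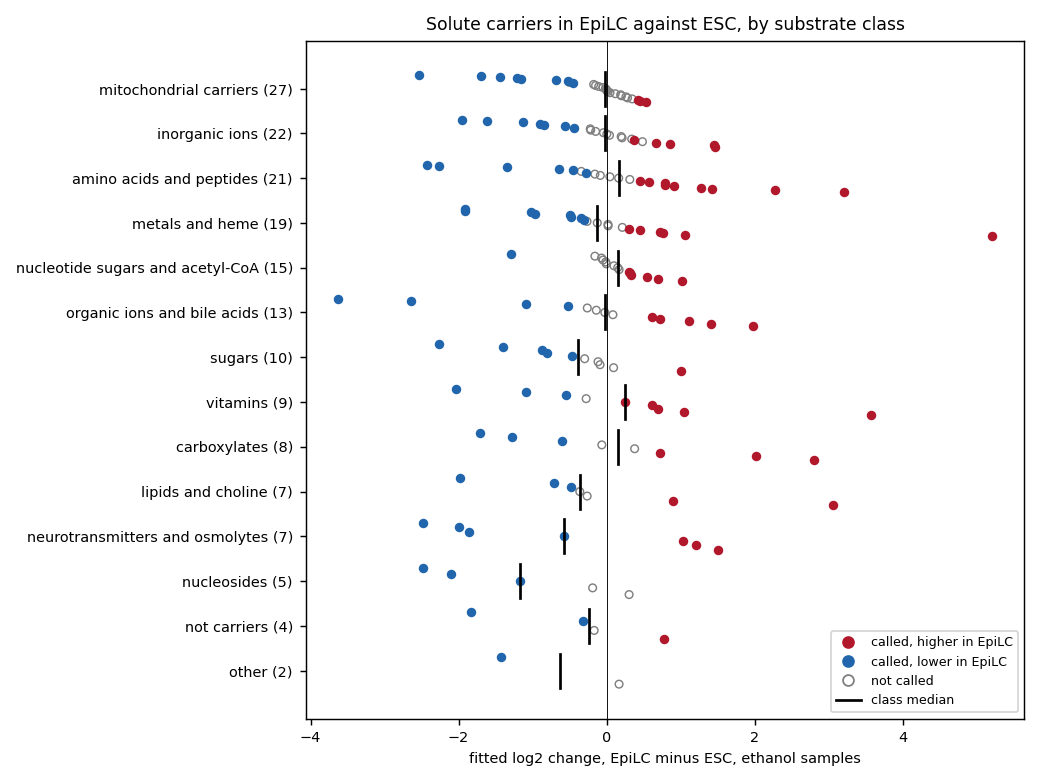
Fitted log2 change between EpiLC and ESC in ethanol for each of the 169 members, 1 point per gene, with substrate classes down the page and the number of members in brackets. Filled points were called (red, higher in EpiLC; blue, lower in EpiLC), open points were not, and black bars are class medians, which lie between -1.17 for nucleosides and 0.25 for vitamins. Changes of genes detected on no array of the lower cell type are fitted values at background, not sizes.

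By class, called members lay on both sides of 0 in all classes of 3 or more members apart from nucleosides. Of 31 families with at least 2 members, 19 held members called in opposite directions and 2 had every member called in 1 direction. In family 9 the only member called lower was Slc9a3r2, which was classed as not a carrier. Over all features 29.8% were called higher and 26.5% lower, and such mixtures were not counted in other groups of genes. Neither the classes nor the families can thus be read as mixed in a way particular to solute carriers. In family 1, the carriers of glutamate and neutral amino acids, Slc1a3 and Slc1a4 were higher in EpiLC while Slc1a1 was lower. In family 6, Slc6a9 and Slc6a15 were higher while Slc6a6, Slc6a7, Slc6a8 and Slc6a12 were lower.

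Of 21 carriers of amino acids and peptides, 9 were higher and 6 lower in EpiLC in ethanol, and 8 and 6 in tamoxifen, with class medians of 0.16 and 0.17. Slc7a7, the light chain of a carrier that exchanges cationic for neutral amino acids, was at 10.98, 11.35 and 10.98 in tamoxifen EpiLC, 10.77, 10.95 and 10.97 in ethanol EpiLC, 8.15, 7.09 and 7.03 in tamoxifen ESC and 8.19, 7.504 and 7.36 in ethanol ESC. It stood about 3 log2 units higher in EpiLC with no overlap; the fitted change was 3.21 (SE 0.28, adjusted p = 1.88e-06) in ethanol and 3.68 (SE 0.28, adjusted p = 6.57e-07) in tamoxifen. Slc1a3, a glutamate and aspartate carrier known from glia, was at 9.86, 9.67 and 9.99 in tamoxifen EpiLC, 10.36, 10.58 and 10.74 in ethanol EpiLC, 8.24, 8.59 and 8.30 in tamoxifen ESC and 8.35, 8.31 and 8.20 in ethanol ESC. EpiLC were higher in both treatments, by 2.28 (SE 0.13, adjusted p = 4.57e-08) in ethanol and 1.46 (SE 0.13, adjusted p = 1.79e-06) in tamoxifen. Slc1a1, the glutamate carrier of neurons and epithelia, which also takes up cysteine, showed the reverse. It was detected on all 11 ESC arrays and on 0 of 8 EpiLC arrays, with 7.21, 7.73 and 7.57 in the ethanol ESC samples, at least 3.2-fold above EpiLC in ethanol and at least 6.71-fold in tamoxifen (adjusted p = 9.07e-08 and 9.53e-09). Such bounds set each array of the lower group to at least its lowest detected signal.

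Other amino acid carriers with higher values in EpiLC in ethanol were Slc1a4, which moves alanine, serine and cysteine (1.27 (SE 0.24, adjusted p = 0.000723)), Slc38a9, the lysosomal carrier that senses arginine for mTORC1 (1.43 (SE 0.15, adjusted p = 7.02e-06)), Slc38a2, a carrier of small neutral amino acids known to be induced when amino acids are short (0.91 (SE 0.14, adjusted p = 0.000186)), Slc7a3 (0.78 (SE 0.12, adjusted p = 0.000172)) and Slc7a5 (0.46 (SE 0.10, adjusted p = 0.00292)). The size for Slc38a9 depends on the background, since its ESC mean lay below the lowest detected signal. Slc7a3 had a further probe whose change, 0.23, was not called. Slc38a8, a glutamine carrier, was detected on 0 EpiLC arrays and was at least 2.86-fold higher in ESC in ethanol (adjusted p = 2.71e-08), from 7.55, 7.13 and 7.46 in the ethanol ESC samples. Slc36a1, a lysosomal exporter of small amino acids, was also lower in EpiLC (-1.34 (SE 0.20, adjusted p = 0.000153)).

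Promoters are shown for Slc1a4 and Slc7a7, because these 2 were higher in EpiLC and their windows hold the core of the amino acid response element, the site that Atf4 binds with a C/EBP partner. The letters searched were TTGCATCA and its reverse complement TGATGCAA, on both strands, in windows of 300 bases around the annotated gene start (RefSeq, GRCm38.p6). The match is in capitals, and sequences run 5′ to 3′ on the gene's strand. The window of Slc1a4 lies at chr11:20332664-20332963 and that of Slc7a7 at chr14:54417895-54418194, both on the minus strand.
Slc1a4: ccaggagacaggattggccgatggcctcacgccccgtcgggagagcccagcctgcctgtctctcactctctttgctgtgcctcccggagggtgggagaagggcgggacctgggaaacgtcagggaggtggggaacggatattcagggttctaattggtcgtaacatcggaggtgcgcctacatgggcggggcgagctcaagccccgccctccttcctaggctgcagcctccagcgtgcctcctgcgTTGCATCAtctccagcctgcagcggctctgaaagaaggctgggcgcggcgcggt
Slc7a7: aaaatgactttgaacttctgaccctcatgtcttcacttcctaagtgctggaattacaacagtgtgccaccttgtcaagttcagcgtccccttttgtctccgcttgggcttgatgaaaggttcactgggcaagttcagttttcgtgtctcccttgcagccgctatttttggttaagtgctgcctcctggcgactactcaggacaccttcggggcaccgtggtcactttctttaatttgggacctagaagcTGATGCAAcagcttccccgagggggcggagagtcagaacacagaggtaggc
The match begins 4 bases before the annotated start in Slc1a4 and 1 base before it in Slc7a7. Of the 27025 promoters in the table, 251 hold a match (0.929%). Windows were found for 135 of the 169 members, of which 3 hold one; the third is Slc50a1, a sugar carrier that was lower in EpiLC (-0.81 (SE 0.14, adjusted p = 0.000514)). Among the 17 amino acid and peptide carriers with a window, 2 hold a match. A match is a run of letters and not evidence of binding. Atf4 itself changed by 0.31 (SE 0.11, adjusted p = 0.0329) between EpiLC and ESC in ethanol and by -0.34 (SE 0.11, adjusted p = 0.0834) with tamoxifen in ESC.

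All 7 members classed as carriers of neurotransmitters and osmolytes were called between the cell types, 3 higher and 4 lower in EpiLC in ethanol, and likewise in tamoxifen. Slc6a8, the creatine carrier, was at 9.90, 10.26 and 9.91 in EpiLC, against 11.99, 12.13 and 11.94 in ESC in ethanol, a change of -1.999 (SE 0.13, adjusted p = 1.14e-07). Slc6a7, a proline carrier of the brain, and Slc6a12, a carrier of betaine and GABA, were detected on all 11 ESC arrays and on 0 EpiLC arrays. In ethanol they were at least 2.75-fold and 1.48-fold higher in ESC (adjusted p = 1.37e-07 and 1.52e-07). Slc6a7 was at 7.12, 7.29 and 7.47 in ethanol ESC. In the opposite direction, the glycine carrier Slc6a9 was at 7.92, 8.22 and 7.72 in EpiLC, against 6.71, 7.02 and 6.49 in ESC (1.21 (SE 0.17, adjusted p = 6.61e-05)), and Slc6a15, a carrier of branched-chain amino acids and proline, differed by 1.03 (SE 0.11, adjusted p = 7.95e-06). Slc32a1, which loads GABA and glycine into vesicles, was at 6.80, 6.91 and 6.55 in EpiLC; it was detected on 1 of 5 arrays of ethanol ESC, at a level that depends on the background (1.499 (SE 0.16, adjusted p = 1.04e-05)). Slc6a6, the taurine carrier and the brightest probe of the class, was lower in EpiLC as well (-0.57 (SE 0.16, adjusted p = 0.0112)).

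Among sugar carriers, 1 of 10 was higher and 5 were lower in EpiLC in ethanol (class median -0.39). The higher one was Slc2a1, the glucose carrier GLUT1, at 13.44, 13.44 and 13.62 in tamoxifen EpiLC, 13.14, 13.08 and 13.25 in ethanol EpiLC, 12.32, 12.26 and 12.31 in tamoxifen ESC and 11.9998, 12.19 and 12.25 in ethanol ESC. Every EpiLC sample exceeded every ESC sample, with a change of 1.01 (SE 0.09, adjusted p = 2.50e-06) in ethanol and 1.20 (SE 0.09, adjusted p = 6.37e-07) in tamoxifen. Slc2a3, the glucose carrier GLUT3, was at 13.68, 13.89 and 14.02 in tamoxifen EpiLC, 13.53, 13.53 and 13.502 in ethanol EpiLC, 13.73, 13.73 and 13.88 in tamoxifen ESC and 13.58, 13.65 and 13.69 in ethanol ESC. The values of its ethanol groups differed by less than the test could call (-0.12 (SE 0.09, adjusted p = 0.314)). Slc5a1, the sodium-coupled glucose carrier of the intestine, was lower in EpiLC, at 5.21, 6.02 and 5.13 in EpiLC, against 7.80, 7.64 and 7.70 in ESC; 1 of 3 ethanol EpiLC arrays detected it, so the size of the change, -2.26 (SE 0.23, adjusted p = 6.22e-06), depends on the background. Slc45a3 was detected on all 11 ESC arrays and 0 EpiLC arrays, with a difference of at least 2.09-fold in ethanol (adjusted p = 2.79e-06).

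Of 8 members classed as carriers of carboxylates, 3 were higher and 3 lower in EpiLC in each treatment. Slc16a3, the lactate exporter MCT4, was detected on all 8 EpiLC arrays and 0 ESC arrays. Its ethanol EpiLC samples were at 7.84, 7.56 and 7.84, at least 3.5-fold above ESC, and the bound in tamoxifen was 3.06-fold (adjusted p = 6.60e-10 and 1.89e-09). Slc16a13, a member of the same family expressed in liver, had the same detection pattern and bounds of 2.28-fold and 1.8-fold. In the other direction, Slc16a9 differed by -1.71 (SE 0.23, adjusted p = 6.27e-05), with 1 of 3 ethanol EpiLC arrays detecting it. Slc13a4, a sulfate carrier, was also lower in EpiLC (-0.60 (SE 0.15, adjusted p = 0.00508)).

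The class of nucleoside carriers held no member called higher in ethanol: 3 of 5 were lower in EpiLC, with a class median of -1.17. Slc28a1, which takes up pyrimidine nucleosides with sodium, was at 6.74, 7.48 and 6.65 in tamoxifen EpiLC, 7.34, 7.80 and 6.84 in ethanol EpiLC, 9.68, 9.37 and 9.23 in tamoxifen ESC and 9.88, 9.84 and 9.71 in ethanol ESC. It changed by -2.48 (SE 0.25, adjusted p = 5.88e-06) in ethanol and -2.46 (SE 0.25, adjusted p = 6.43e-06) in tamoxifen. Slc29a3, the lysosomal member, changed by -2.11 (SE 0.15, adjusted p = 2.63e-07), and Slc29a1, the equilibrative carrier ENT1 of the plasma membrane, by -1.17 (SE 0.12, adjusted p = 4.76e-06). Slc29a2, the carrier ENT2, was not called in ethanol (0.30 (SE 0.16, adjusted p = 0.117)). Slc29a4, which carries monoamines, was lower in tamoxifen EpiLC than in tamoxifen ESC (-0.63 (SE 0.13, adjusted p = 0.00149)).

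Family 35, which holds the carriers of nucleotide sugars into the Golgi and endoplasmic reticulum, had 15 members. They were classed by family number, so a nucleotide sugar as substrate is not implied for each of them. Of these, 6 were higher and 1 lower in EpiLC in ethanol, with a median of 0.15. Slc35b4, which carries UDP-xylose and UDP-N-acetylglucosamine, had the highest change (1.01 (SE 0.10, adjusted p = 3.50e-06)), and Slc35g1 the lowest (-1.29 (SE 0.14, adjusted p = 8.00e-06)). The 6 higher members ranged from 0.30 for Slc35a4 to this value. Slc35e2 and Slc35c1 had probes that disagreed: for Slc35e2 a dimmer probe was called at 0.46 where the brightest gave -0.05, and for Slc35c1 one was called at -0.67 where the brightest gave -0.16.

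Of 9 vitamin carriers, 5 were higher and 3 lower in EpiLC in ethanol, and 3 and 3 in tamoxifen. Slc46a3, a lysosomal member of the family that holds the folate carrier Slc46a1, was at 8.67, 8.02 and 8.56 in ethanol EpiLC and was detected on 0 of 11 ESC arrays. It was at least 5.61-fold higher in EpiLC in ethanol and 4.66-fold in tamoxifen (adjusted p = 7.15e-08 and 1.82e-07). Slc52a3, the riboflavin carrier, was lower at 7.36, 7.48 and 7.38 in EpiLC, against 9.33, 9.496 and 9.48 in ESC (-2.03 (SE 0.10, adjusted p = 1.77e-08)). Slc46a1 was lower too (-0.55 (SE 0.12, adjusted p = 0.00273)), whereas Slc19a1, the reduced folate carrier, was higher (0.69 (SE 0.10, adjusted p = 0.000129)), so that these folate carriers differed in opposite directions. Slc5a6, which takes up biotin and pantothenate, differed by -1.09 (SE 0.15, adjusted p = 8.85e-05).

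Of the 7 carriers of lipids and choline, 2 were higher and 3 lower in EpiLC in ethanol. Slc27a2, a fatty acid carrier with very-long-chain acyl-CoA synthetase activity known from liver and kidney, was at 10.23, 10.18 and 10.27 in tamoxifen EpiLC, 10.59, 10.87 and 10.65 in ethanol EpiLC, 7.71, 7.496 and 7.29 in tamoxifen ESC and 7.67, 7.68 and 7.55 in ethanol ESC. All EpiLC values lay above all ESC values, with a change of 3.06 (SE 0.11, adjusted p = 1.74e-09) in ethanol. The choline carriers of family 44 split: Slc44a1 was detected on 0 EpiLC arrays and was at least 2.14-fold higher in ESC (adjusted p = 1.34e-05), from 6.84, 7.21 and 6.71 in ethanol ESC, while Slc44a2 was higher in EpiLC (0.90 (SE 0.10, adjusted p = 1.56e-05)).

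The 27 members of family 25, most of them carriers of the inner mitochondrial membrane, formed the largest class, and 22 were detected on all arrays. In ethanol 3 were higher and 8 lower in EpiLC, and 16 were not called. Slc25a20, the exchanger that brings acylcarnitines into mitochondria for fatty acid oxidation, was at 10.502, 11.07 and 10.88 in tamoxifen EpiLC, 10.21, 10.67 and 10.501 in ethanol EpiLC, 13.17, 13.27 and 13.39 in tamoxifen ESC and 12.86, 13.12 and 12.998 in ethanol ESC. Every EpiLC sample was below every ESC sample, with a change of -2.53 (SE 0.15, adjusted p = 8.32e-08) in ethanol and -2.46 (SE 0.15, adjusted p = 1.15e-07) in tamoxifen. Slc25a12, an aspartate and glutamate exchanger, changed by -1.45 (SE 0.15, adjusted p = 6.69e-06), Slc25a39, which carries glutathione, by -1.22 (SE 0.14, adjusted p = 1.26e-05), and Slc25a36, a pyrimidine nucleotide carrier, by -1.16 (SE 0.14, adjusted p = 2.16e-05). The phosphate carrier Slc25a3 changed by -0.00 (SE 0.11, adjusted p = 0.985) in ethanol. In tamoxifen its change was -0.34 (SE 0.11, adjusted p = 0.0163), a call lost with round 2 arrays alone (adjusted p = 0.276) and without EpiLC tamoxifen sample 3 or ESC tamoxifen sample 1 in turn (adjusted p up to 0.0698).

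Metal and heme carriers counted 6 higher and 8 lower of 19 in ethanol. Slc40a1, ferroportin, the iron exporter of the plasma membrane, had the largest fitted change of all members. It was at 12.02, 12.12 and 11.90 in tamoxifen EpiLC, 10.86, 11.30 and 10.70 in ethanol EpiLC, 6.52, 5.78 and 6.08 in tamoxifen ESC and 5.95, 5.82 and 5.49 in ethanol ESC. The ethanol change was 5.20 (SE 0.20, adjusted p = 2.33e-09); Slc40a1 was detected on 2 of 5 arrays of ethanol ESC, so its size depends on the background there. The iron importer Slc11a2, also called DMT1, was higher as well (1.05 (SE 0.15, adjusted p = 0.00011)), with the same limit. Of the zinc importers of family 39, Slc39a11 (-1.91 (SE 0.13, adjusted p = 1.80e-07)) and Slc39a4 (-1.02 (SE 0.19, adjusted p = 0.000571)) were lower in ethanol EpiLC. Slc41a3, of the magnesium carriers of family 41, was detected on 0 EpiLC arrays and was at least 1.83-fold higher in ESC in ethanol (adjusted p = 4.63e-06). Slc11a1 had probes that disagreed, the brightest with -0.13, not called, and a dimmer one called at -2.16.

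Of 22 carriers of inorganic ions, 5 were higher and 7 lower in EpiLC in ethanol, and 6 and 9 in tamoxifen. Slc8b1, the exchanger that releases calcium from mitochondria, was at 8.19, 8.37 and 8.32 in EpiLC, against 10.13, 10.30 and 10.33 in ESC (-1.96 (SE 0.11, adjusted p = 4.92e-08)). Bicarbonate carriers of family 4 split, with Slc4a8 (-1.62 (SE 0.16, adjusted p = 4.57e-06)) and Slc4a2 (-0.84 (SE 0.15, adjusted p = 0.000533)) lower and Slc4a3 higher (0.85 (SE 0.12, adjusted p = 6.87e-05)), though of the 2 dimmer probes of Slc4a3 1 was called (1.15) and 1 was not (0.30). The phosphate carrier Slc20a2 was higher (0.67 (SE 0.10, adjusted p = 0.000133)). Slc9b2, a sodium and proton exchanger, was detected on EpiLC arrays and on no ESC array, at least 1.46-fold above ESC in ethanol (adjusted p = 0.000207). Slc12a2, the sodium, potassium and chloride cotransporter NKCC1, was among the 10 not called in ethanol (0.21 (SE 0.14, adjusted p = 0.222)).

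Of 13 carriers of organic ions and bile acids, 5 were higher and 4 lower in EpiLC in ethanol. Slc51a, a subunit of the bile acid and steroid exporter of the ileum, was detected on all 11 ESC arrays and 0 EpiLC arrays, at 7.47, 8.19 and 8.42 in tamoxifen ESC and 8.28, 8.75 and 8.72 in ethanol ESC. Its bound, at least 6.69-fold higher in ESC in ethanol (adjusted p = 2.20e-07), was the largest of all bounds in ethanol. Slc17a9, which loads ATP into vesicles, was at 5.06, 5.77 and 5.81 in EpiLC, against 8.33, 7.92 and 8.32 in ESC in ethanol; 1 of 3 EpiLC arrays detected it, so its change of -2.64 (SE 0.20, adjusted p = 5.79e-07) depends on the background. Slc17a6, which loads glutamate into vesicles, was detected on all 8 EpiLC arrays and 0 ESC arrays, with bounds of 1.79-fold in ethanol and 2.6-fold in tamoxifen (adjusted p = 6.63e-06 and 1.84e-06). Slc22a23, an orphan of the organic ion family, was at least 1.83-fold higher in ethanol EpiLC.

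**Figure D2:**
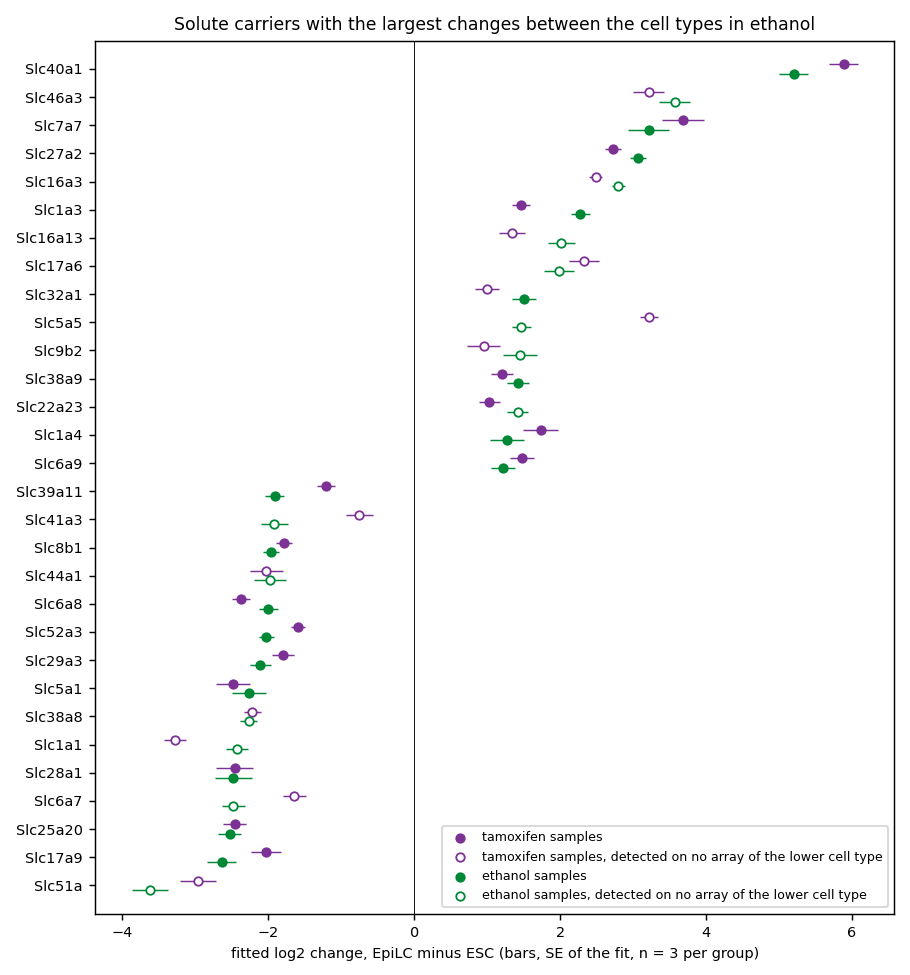
Fitted log2 change between EpiLC and ESC for the 30 members with the largest called changes in ethanol, 15 in each direction, with the tamoxifen samples (purple) above the ethanol samples (green) for each gene and bars for the SE of the fit. Open points were detected on no array of the lower cell type, so their fitted size is not a fold. In ethanol the values run from -3.63 for Slc51a to 5.20 for Slc40a1, and Slc5a5 and Slc41a3 differ most visibly between the treatments.

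Tamoxifen changed 25 members in ESC, 17 upward and 8 downward (10.1% and 4.73%), beside 5.59% and 3.5% of all features. The 17 include Slc4a1 and Slc26a9, which passed the detection rule only through tamoxifen ESC arrays. Slc13a2 was detected on 1 ethanol ESC array and Slc7a9 on 1 ethanol EpiLC array, so these too reached 3 arrays only through tamoxifen arrays. The p-values of these members are not independent of the choice of members. Among members detected on all arrays, 9 of 108 rose and 6 fell (8.33% and 5.56%), beside 4.98% and 3.68% of features so detected. The median change of the 169 members was 0.01, and of all features -0.01. Same-numbered tamoxifen and ethanol samples varied together, and the main fit left this pairing out. With the replicate block 54 members were called, 32 higher and 22 lower, the 25 among them, that is 32% beside 21.7% of all features. With equal-median scaling 22 rose and 4 fell (13% and 2.37%), beside 8.46% and 1.27% of all features. Round 1 arrays alone gave 14 calls and round 2 arrays alone 22, beside 393 and 784 of 9422 features. Of the 25 calls, 11 held without each of the 12 samples in turn. Markers of primitive endoderm moved in the same comparison: both tested genes of 6 on the array, Gata6 and Dab2, rose, while Gata4 was detected on 0 arrays, and the summed level of the tested markers was 10.64 to 10.98 in tamoxifen ESC, against 9.12 to 9.51 in ethanol ESC (log2). The summed level of trophoblast markers was 12.90 to 13.04 in tamoxifen ESC, against 11.96 to 12.17 in ethanol ESC, with Tfap2c (0.98 (SE 0.17, adjusted p = 0.00432)) as the called gene of 5 tested. Of 8 naive genes tested, Klf4 and Dppa3 rose, and the summed levels of the naive list overlapped between the groups. Of 7 formative genes tested, Otx2 rose while Sall2 and Tcf15 fell. Among 5 pluripotency genes listed as shared by both states, Pou5f1 fell. Their part in the results on carriers was not tested.

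Among carriers of amino acids, Slc7a9, the light chain of the cystine and dibasic amino acid carrier of kidney and gut, was at 7.29, 6.68 and 6.96 in tamoxifen ESC, against 5.57, 5.44 and 5.54 in ethanol ESC. It was detected on 6 of 6 tamoxifen arrays and 0 of 5 ethanol arrays, and was at least 1.98-fold higher in tamoxifen (adjusted p = 0.000181). In EpiLC all 5 tamoxifen arrays and 1 of 3 ethanol arrays detected it. Slc7a9 thus met the detection rule only through tamoxifen arrays, and its p-values are not independent of the choice of members. Slc1a1 was at 8.34, 8.51 and 8.87 in tamoxifen ESC, against 7.21, 7.73 and 7.57 in ethanol ESC, without overlap, and rose by 1.07 (SE 0.15, adjusted p = 0.00114). Slc7a3, which imports arginine and lysine, fell: it was at 11.87, 12.05 and 11.63 in tamoxifen ESC, against 12.90, 12.76 and 12.61 in ethanol ESC, a change of -0.91 (SE 0.12, adjusted p = 0.000899), while its dimmer probe changed by -0.50 and was not called. Slc7a4, an orphan of the same family, was detected on 2 of 6 tamoxifen arrays and 0 ethanol arrays (adjusted p = 0.0282), with no fold, and lost its call without ESC tamoxifen sample 1 or 3 or ESC ethanol sample 1 or 2 in turn (adjusted p up to 0.108).

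Carriers of neurotransmitters and osmolytes moved both ways in ESC, with 2 higher and 3 lower of 7. Over all features 5.59% were called higher and 3.5% lower, and this class was not tested as a set. The glycine carrier Slc6a9 was at 5.88, 6.05 and 5.90 in tamoxifen ESC, against 6.71, 7.02 and 6.49 in ethanol ESC, a change of -0.80 (SE 0.17, adjusted p = 0.012), which equal-median scaling took to an adjusted p of 0.0506. Slc6a15 was at 7.26, 7.57 and 7.53 in tamoxifen ESC, against 8.31, 8.19 and 8.20 in ethanol ESC and fell by 0.78 (SE 0.11, adjusted p = 0.00112). Slc6a7 fell by 0.75 (SE 0.16, adjusted p = 0.0142), a call lost without ESC ethanol sample 3 (adjusted p = 0.0635) and with round 1 arrays alone (adjusted p = 0.0644). The creatine carrier Slc6a8 rose by 0.45 (SE 0.13, adjusted p = 0.0479) and Slc6a12 by 0.47 (SE 0.12, adjusted p = 0.0335). The call of Slc6a12 was lost without EpiLC tamoxifen sample 2, ESC tamoxifen sample 1 or 3 or ESC ethanol sample 2 or 3 in turn (adjusted p up to 0.136). That of Slc6a8 was lost without EpiLC tamoxifen sample 1 or 3, EpiLC ethanol sample 1 or 3, ESC tamoxifen sample 1, 2 or 3 or ESC ethanol sample 1, 2 or 3 in turn (adjusted p up to 0.153).

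The largest fall in ESC was that of Slc47a1, the proton-coupled exporter of organic cations MATE1 of kidney and liver. It was at 8.002, 8.14 and 7.45 in tamoxifen ESC, against 9.85, 9.31 and 9.19 in ethanol ESC, and changed by -1.58 (SE 0.19, adjusted p = 0.00048). Slc10a6, of the same class, an importer of sulfated steroids, was at 7.47, 7.48 and 7.31 in tamoxifen ESC, against 6.29, 6.55 and 6.36 in ethanol ESC and rose by 1.02 (SE 0.17, adjusted p = 0.00304). A dimmer probe of Slc10a6 changed by 0.67 and was not called.

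Of 22 carriers of inorganic ions, 4 were called in ESC, all higher, beside 5.59% of all features called higher and 3.5% lower. The class was not tested as a set. Slc34a3, a sodium-coupled phosphate carrier of the kidney, was at 7.61, 7.41 and 7.33 in tamoxifen ESC, against 6.40, 6.36 and 6.41 in ethanol ESC, a change of 1.06 (SE 0.14, adjusted p = 0.00103). Slc4a2, an exchanger of chloride and bicarbonate, rose by 0.65 (SE 0.15, adjusted p = 0.0216), a call lost without ESC tamoxifen sample 2 or 3 or ESC ethanol sample 1 or 3 in turn (adjusted p up to 0.0825) and with round 1 arrays alone (adjusted p = 0.108). Slc26a9, a chloride carrier, and Slc4a1, the band 3 anion exchanger of red cells, were detected on 0 ethanol ESC arrays and on 4 and 5 of the 6 tamoxifen arrays. Neither was detected on an EpiLC array, so both became members only through the group in which they were then called higher. Their p-values are thus not independent of the choice of members. The bound of Slc4a1 was 1.09-fold (adjusted p = 0.0453), and its call was lost without EpiLC tamoxifen sample 3, EpiLC ethanol sample 1, ESC tamoxifen sample 1, 2 or 3 or ESC ethanol sample 1, 2 or 3 in turn (adjusted p up to 0.157). For Slc26a9 no fold is given, since its bound lies under 1 (adjusted p = 0.00792).

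Among vitamin carriers, Slc23a3, an orphan of the ascorbate family, was at 6.37, 6.84 and 6.81 in tamoxifen ESC, against 5.17, 5.78 and 5.13 in ethanol ESC, detected on 6 of 6 tamoxifen arrays and 0 of 5 ethanol arrays. It was at least 1.6-fold higher in tamoxifen (adjusted p = 0.00149). The thiamine carrier Slc19a2 rose by 0.34 (SE 0.08, adjusted p = 0.0198), a call lost without ESC tamoxifen sample 2 or 3 or ESC ethanol sample 1, 2 or 3 in turn (adjusted p up to 0.0723). Slc27a3, an acyl-CoA synthetase of the fatty acid carrier family, was at 10.09, 10.35 and 10.27 in tamoxifen ESC, against 9.67, 9.58 and 9.59 in ethanol ESC and rose by 0.62 (SE 0.12, adjusted p = 0.00789), with an adjusted p of 0.0656 on round 1 arrays alone. Slc13a2, a carrier of citrate and succinate, rose by 0.53 (SE 0.13, adjusted p = 0.0275), with 1 of 5 ethanol arrays detecting it, and lost its call without ESC tamoxifen sample 2 or 3 or ESC ethanol sample 1 or 3 in turn (adjusted p up to 0.103). Slc29a4 rose by 0.59 (SE 0.13, adjusted p = 0.0164), lost without ESC tamoxifen sample 1 or 2 or ESC ethanol sample 3 in turn (adjusted p up to 0.0672).

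The remaining calls in ESC concerned organelle and metal carriers. Slc25a42, which imports coenzyme A into mitochondria, was at 7.14, 6.89 and 7.15 in tamoxifen ESC, against 6.77, 6.30 and 6.24 in ethanol ESC and rose by 0.63 (SE 0.15, adjusted p = 0.023). Its call was lost without ESC tamoxifen sample 1 or 3 or ESC ethanol sample 2 or 3 in turn (adjusted p up to 0.0923). Slc25a17, a family member of peroxisomes, rose by 0.41 (SE 0.10, adjusted p = 0.0317), lost without ESC tamoxifen sample 1, 2 or 3 or ESC ethanol sample 1 or 3 in turn (adjusted p up to 0.109). Slc25a33, a carrier of pyrimidine nucleotides, fell by 0.42 (SE 0.10, adjusted p = 0.0273), lost without ESC tamoxifen sample 1 or 3 or ESC ethanol sample 2 or 3 in turn (adjusted p up to 0.0996). The heme carrier Slc48a1 fell by 0.47 (SE 0.11, adjusted p = 0.0211), lost without ESC tamoxifen sample 1 or 3 or ESC ethanol sample 1 or 2 in turn (adjusted p up to 0.0825). Slc39a11 fell by 0.50 (SE 0.13, adjusted p = 0.0315), lost without ESC tamoxifen sample 1 or 2 or ESC ethanol sample 1, 2 or 3 in turn (adjusted p up to 0.114). Each of these 5 calls was thus lost without at least 1 sample of ESC.

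**Figure D3:**
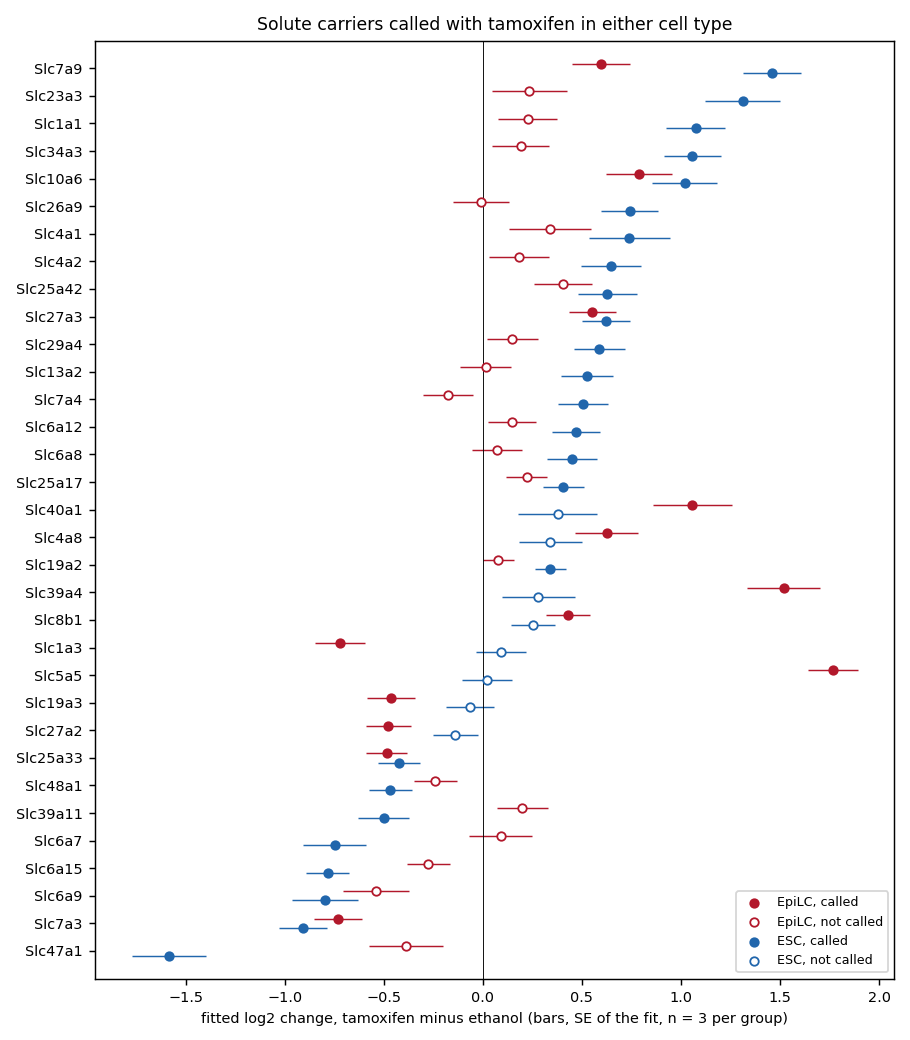
Fitted log2 change with tamoxifen in EpiLC (red, above) and ESC (blue, below) for the 33 members called in either cell type, with bars for the SE of the fit and 3 samples per group. Filled points were called and open points were not; Slc7a9, Slc23a3, Slc26a9, Slc4a1 and Slc7a4 were detected on no ethanol ESC array, so their ESC points are not sizes. Slc5a5 and Slc19a3 were detected on no ESC array, and Slc1a1, Slc4a1, Slc6a7, Slc6a12, Slc13a2 and Slc26a9 on no EpiLC array, so their points for that cell type are differences between background levels. Slc5a5 and Slc39a4 lie far to the right in EpiLC, and Slc47a1 lies far to the left in ESC.

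In EpiLC tamoxifen changed 13 members, 8 upward and 5 downward (4.73% and 2.96%), beside 4.75% and 2.14% of all features. Among members detected on all arrays, 5 rose and 4 fell (4.63% and 3.70%), beside 4.59% and 2.05% of features so detected. With the replicate block 40 members were called, 22 higher and 18 lower, the 13 among them, that is 23.7% beside 20% of all features. Equal-median scaling gave 6 each way (3.55% each), beside 3.35% higher and 2.56% lower of all features. The values normalized by the authors gave 8 higher and 11 lower, that is 19 of 169 members beside 1070 of 9422 features. Ethanol EpiLC were read in round 1 alone, where 10 members were called, beside 335 of 9422 features. Of the 13 calls, 5 held without each of the 12 samples in turn. Without EpiLC tamoxifen sample 2, 6 members were called, beside 423 of 9422 features. Trophoblast markers moved in the same comparison: 4 of 5 tested genes of 7 on the array rose (Tfap2c, Gata3, Krt8 and Krt18), Cdx2 was not called and Elf5 was detected on 0 arrays. The summed level was 13.69 to 14.02 in tamoxifen EpiLC, against 12.46 to 12.69 in ethanol EpiLC (log2). Naive markers moved as well: Tbx3, Klf2 and Klf5 rose, 3 of 8 tested with 0 lower, and their summed level over the list was 13.63 to 13.78 in tamoxifen EpiLC, against 13.21 to 13.495 in ethanol EpiLC. Of 7 formative genes tested, Fgf5 rose while Dnmt3b and Sall2 fell. Their part in the results on carriers was not tested.

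Slc5a5, the sodium and iodide cotransporter of the thyroid, showed the largest change with tamoxifen in EpiLC. It was at 7.82, 8.11 and 7.82 in tamoxifen EpiLC, against 5.96, 6.23 and 6.25 in ethanol EpiLC, and rose by 1.77 (SE 0.13, adjusted p = 8.01e-05). On ESC arrays Slc5a5 was detected on 0 of 11. Slc39a4, a zinc importer of the gut, was at 10.91, 11.36 and 10.99 in tamoxifen EpiLC, against 9.30, 9.94 and 9.47 in ethanol EpiLC, a change of 1.52 (SE 0.19, adjusted p = 0.00106). Ferroportin, Slc40a1, was at 12.02, 12.12 and 11.90 in tamoxifen EpiLC, against 10.86, 11.30 and 10.70 in ethanol EpiLC and rose by 1.06 (SE 0.20, adjusted p = 0.00951). The tamoxifen values of all 3 genes lay above all ethanol values.

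Slc1a3 was at 9.86, 9.67 and 9.99 in tamoxifen EpiLC, against 10.36, 10.58 and 10.74 in ethanol EpiLC and fell by 0.72 (SE 0.13, adjusted p = 0.00675). Slc7a3 was at 12.86, 12.84 and 12.73 in tamoxifen EpiLC, against 13.39, 13.66 and 13.57 in ethanol EpiLC and fell by 0.73 (SE 0.12, adjusted p = 0.00526), while its dimmer probe changed by -0.34 and was not called. All 13 members called with tamoxifen in EpiLC, these 2 among them, had groups that did not overlap, as had all 25 called in ESC. The matching share over all features was not counted. Slc10a6 was at 8.11, 8.55 and 8.24 in tamoxifen EpiLC, against 7.29, 7.91 and 7.34 in ethanol EpiLC, a change of 0.79 (SE 0.17, adjusted p = 0.0169) that was lost without EpiLC tamoxifen sample 2 or EpiLC ethanol sample 1 or 3 in turn (adjusted p up to 0.0607); its dimmer probe changed by 0.78 and was not called. Slc27a3 rose by 0.55 (SE 0.12, adjusted p = 0.0197), a call lost without EpiLC tamoxifen sample 1 or 2 or EpiLC ethanol sample 2 or 3 in turn (adjusted p up to 0.0616).

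The other 6 calls in EpiLC lay between -0.49 and 0.63. Slc4a8 rose by 0.63 (SE 0.16, adjusted p = 0.039) and Slc8b1 by 0.43 (SE 0.11, adjusted p = 0.0417). A dimmer probe of Slc4a8 changed by 0.27 and was not called. Slc4a8 lost its call without EpiLC tamoxifen sample 1, 2 or 3, EpiLC ethanol sample 1 or 2, ESC tamoxifen sample 2 or ESC ethanol sample 2 in turn (adjusted p up to 0.117), and Slc8b1 without EpiLC tamoxifen sample 1, 2 or 3, EpiLC ethanol sample 1, 2 or 3, ESC tamoxifen sample 2 or ESC ethanol sample 2 or 3 in turn (adjusted p up to 0.127). Slc7a9 rose by 0.60 (SE 0.15, adjusted p = 0.0324), a size that depends on the background, while a dimmer probe changed by 0.51 and was not called. Slc7a9 lost its call without EpiLC tamoxifen sample 1, 2 or 3, EpiLC ethanol sample 1, 2 or 3 or ESC ethanol sample 2 in turn (adjusted p up to 0.0926). Slc27a2 fell by 0.48 (SE 0.11, adjusted p = 0.0296), lost without EpiLC tamoxifen sample 1, 2 or 3 or EpiLC ethanol sample 2 or 3 in turn (adjusted p up to 0.0824). Slc25a33 fell by 0.49 (SE 0.10, adjusted p = 0.0188), lost without EpiLC tamoxifen sample 1 or 3 or EpiLC ethanol sample 3 in turn (adjusted p up to 0.063). Slc19a3, a thiamine carrier detected on 3 arrays in all, fell by 0.46 (SE 0.12, adjusted p = 0.0421), lost without EpiLC tamoxifen sample 1, 2 or 3, EpiLC ethanol sample 1 or 3, ESC tamoxifen sample 1, 2 or 3 or ESC ethanol sample 1 in turn (adjusted p up to 0.142). Of its 3 arrays 2 were ethanol EpiLC, so it met the rule only with the group in which it was higher.

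Both tamoxifen comparisons, which share no samples, called 5 members in the same direction: Slc7a9, Slc10a6 and Slc27a3 higher, and Slc7a3 and Slc25a33 lower. That is 20% of the 25 members called in ESC and 38.5% of the 13 called in EpiLC, and 0 members were called in opposite directions. The same overlap over all features was not counted, so these shares cannot be read as particular to solute carriers. Of the 5, Slc7a9 met the detection rule only through tamoxifen arrays, where it was called higher. The glucose carriers were not called in either cell type: in EpiLC Slc2a1 changed by 0.34 (SE 0.09, adjusted p = 0.0507) and Slc2a3 by 0.34 (SE 0.09, adjusted p = 0.053). With the replicate block these 2 reached adjusted p = 0.0192 and 0.0275.

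The tamoxifen effect itself differed between the cell types for 5 members, 4 with a more positive effect in EpiLC and 1 with a more negative one, beside 1.41% and 1.18% of all features. For Slc5a5 the effect in EpiLC minus that in ESC was 1.75 (SE 0.18, adjusted p = 0.00172), and the call held without each sample in turn. Slc5a5 was detected on 0 of 11 ESC arrays, so this difference sets its change in EpiLC against values at background in ESC. For Slc39a4 it was 1.24 (SE 0.26, adjusted p = 0.0317), with 10.60, 10.98 and 11.03 in tamoxifen ESC, against 10.39, 10.66 and 10.72 in ethanol ESC, groups that overlap, and its dimmer probe gave 1.04, not called. For Slc47a1 it was 1.20 (SE 0.27, adjusted p = 0.0394): the ESC fall given above stands beside 8.76, 8.77 and 8.87 in tamoxifen EpiLC, against 9.11, 9.25 and 9.21 in ethanol EpiLC, a change of -0.39 (SE 0.19, adjusted p = 0.255). The other 2 probes of Slc47a1, which were called for the ESC fall, gave 0.53 and 0.85 for the difference and were not called. Slc41a3 was detected on 0 EpiLC arrays, so that its difference of 1.17 (SE 0.27, adjusted p = 0.0453) rests on values at background in EpiLC; its dimmer probe gave 1.14, not called. Slc1a3 was the opposite case at -0.81 (SE 0.18, adjusted p = 0.0394), with 8.24, 8.59 and 8.30 in tamoxifen ESC, against 8.35, 8.31 and 8.20 in ethanol ESC.

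The calls for these differences depended on the setting. Equal-median scaling moved the median difference of all features to -0.18 and called 1 member higher and 7 lower (0.592% and 4.14%), against 4 and 1, beside 0.828% and 2.74% of all features. With the replicate block 25 members differed, 11 upward and 14 downward, the 5 among them, that is 14.8% beside 12.1% of all features. The call of Slc39a4 was lost without EpiLC tamoxifen sample 2 or 3, EpiLC ethanol sample 1 or 3, ESC tamoxifen sample 1 or 2 or ESC ethanol sample 2 or 3 in turn (adjusted p up to 0.0854). Those of Slc47a1, Slc41a3 and Slc1a3 were lost in fits that left out 1 sample: Slc47a1 without EpiLC tamoxifen sample 1, 2 or 3, EpiLC ethanol sample 1, 2 or 3, ESC tamoxifen sample 1 or 3 or ESC ethanol sample 1 or 2 in turn (adjusted p up to 0.0932), Slc41a3 without EpiLC tamoxifen sample 1, 2 or 3, EpiLC ethanol sample 1, 2 or 3, ESC tamoxifen sample 1 or 3 or ESC ethanol sample 2 or 3 in turn (adjusted p up to 0.115), and Slc1a3 without EpiLC tamoxifen sample 1, 2 or 3, EpiLC ethanol sample 2 or 3, ESC tamoxifen sample 1, 2 or 3 or ESC ethanol sample 1, 2 or 3 in turn (adjusted p up to 0.0981). Round 1 arrays alone called 1 member, beside 61 of 9422 features.

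**Figure D4:**
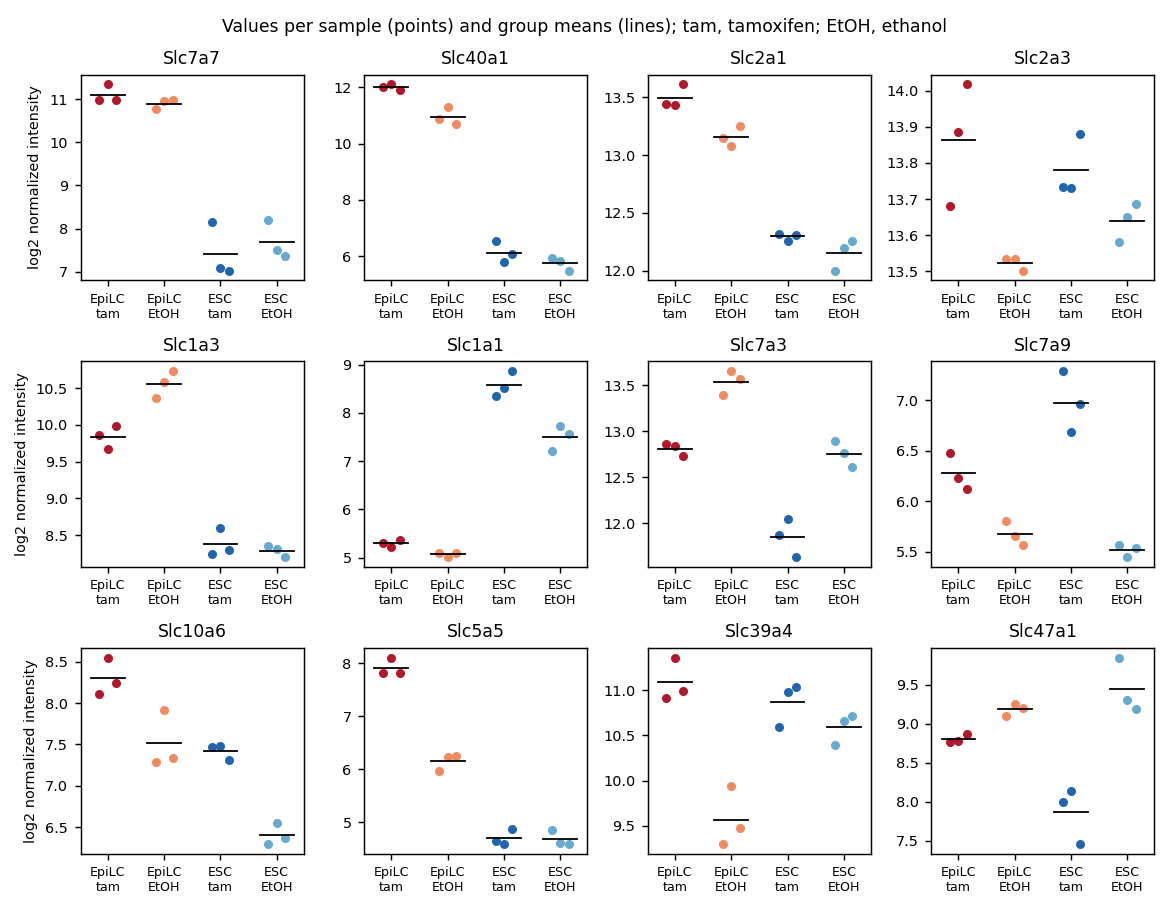
Log2 normalized intensity of 12 members in each of the 12 samples, with points for samples, lines for group means and a vertical scale of its own in each panel, so heights cannot be set against each other between panels. Slc7a7, Slc40a1, Slc2a1 and Slc1a1 separate the cell types, Slc7a3 is lower and Slc10a6 higher with tamoxifen in both, and Slc5a5 is high in the tamoxifen EpiLC samples.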

How the data were processed

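Intensities were deposited by the authors per probe and array, not normalized, with a detection p-value against negative control beads, per the file headers, and with bead counts that were not used for the tests. The deposited table of normalized intensities, made with limma per the submitters' processing notes (no version or method given), served as an alternative. Members and gene lists were chosen with earlier results of these data known.

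Here, the 19 arrays were corrected and normalized together with neqc (limma 3.58.1, R 4.3.3; offset 16, quantile, log2), and a fit of sample plus hybridization round gave 1 value for each of 12 samples. Probes detected at 0.01 on 3 or more arrays were kept (12529 of 25697), named through RefSeq gene identifiers (23962 matched), and the probe of highest mean stood for a gene. The number of arrays limits the precision. Groups were compared with lmFit and eBayes over all 9422 features and all 4 groups, with Benjamini-Hochberg adjustment. The labels do not say whether samples are separate cultures, so p-values may measure technical spread. An exact permutation of 3 against 3 cannot give a p below 0.1.

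Deviations of same-numbered tamoxifen and ethanol samples from their group means correlated at 0.399, 0.371 and 0.470 in ESC and 0.547, 0.567 and 0.498 in EpiLC. The numbers were therefore taken to pair these samples, but only in the alternative fit with the replicate block. The main fit had no such block, so its calls, SE and p-values leave the pairing out. Between the cell types same-numbered samples correlated at 0.058 to 0.253 in ethanol and 0.129 to 0.217 in tamoxifen. In the text were named the members with the largest called changes (up to 12 each way with tamoxifen, 15 each way between cell types), those called for the interaction, a fixed list of 20 carriers of known role, the 10 of highest mean and those at the edge of the rule. Members named beside these were chosen after their values were seen. Where the lower group's arrays never detected a gene, a bound is given, and no fold where that bound was under 1. The fit was also run on simulated data, and the outcome is not given here, so it lends no weight to the calls. Protein sequences were not used here.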

Additional observations from a re-analysis of the deposited data

Results flagged for a closer look

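For 5 solute carriers the change with tamoxifen differed between EpiLC and ESC by the interaction term of the fit (limma, adjusted p under 0.05). The effect was more positive in EpiLC for 2.37% of members and more negative for 0.592%, beside 1.41% and 1.18% of all features. The effect in EpiLC minus that in ESC was 1.75 for the iodide carrier Slc5a5, 1.24 for the zinc carrier Slc39a4, 1.20 for the organic cation exporter Slc47a1, 1.17 for Slc41a3 and -0.81 for the glutamate carrier Slc1a3, on the log2 scale. Slc5a5 was detected on 0 of 11 ESC arrays and Slc41a3 on 0 of 8 EpiLC arrays, so for both the change in that cell type is one between levels at background. The other kept probes of Slc39a4, Slc47a1 and Slc41a3 were not called for the difference. Only the call of Slc5a5 held without each sample in turn.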

How the results depend on the processing

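The replicate block, the paired fit for tamoxifen, gave 54 calls in ESC, 40 in EpiLC and 25 for the interaction, against 25, 13 and 5, and it ended no call; over both cell types, a block added after seeing the data, it gave 113 in ethanol and 119 in tamoxifen, against 107 and 111, within 1.5 times. Over all 9422 features that added block called 5838 and 5861. Round 1 arrays alone gave 14 calls in ESC and 1 for the interaction, beside 393 and 61 features. For the interaction, equal-median scaling gave 8 calls, the values normalized by the authors gave 9, normexp with an offset of 50 gave 8, no filter on dim probes 2, the mean of kept probes 3 and a random sample block over arrays 11. In the same order these settings called 336, 399, 271, 205, 231 and 331 features, of 9422 tested, or of 18309 without the filter. Leaving out each sample in turn gave 14 to 27 calls in ESC, 6 to 15 in EpiLC, 95 to 107 and 102 to 113 between the cell types in ethanol and in tamoxifen, and 1 to 4 for the interaction. The lowest count in ESC came without ESC ethanol sample 3, in EpiLC without EpiLC tamoxifen sample 2. Of 9422 features these fits called 527 to 900 in ESC and 356 to 621 in EpiLC. Between the cell types they called 4737 to 5396 features in ethanol and 4712 to 5368 in tamoxifen, and for the interaction 109 to 198. Of the 67 named members, 0 of 7079 changes recomputed under alternatives turned a called direction; 242 lost and 128 gained a call, and 186 changes that were not called turned sign. Equal-median scaling moved the median change of all features by up to -0.18. Dim probes limit what fold can be given: 23 members were detected in 1 cell type alone.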

Other observations

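Other transport genes were listed beside the solute carriers, with earlier results known. Of 46 ABC transporters on the array 16 were tested; 2 were higher and 7 lower in EpiLC in ethanol, and 2 rose with tamoxifen in EpiLC. These 2 were the lipid carrier Abca3 (0.77 (SE 0.14, adjusted p = 0.00814)) and the drug exporter Abcb1b (0.75 (SE 0.10, adjusted p = 0.00127)). In ethanol Abcb1b was lower in EpiLC (-1.55 (SE 0.10, adjusted p = 9.07e-08)).

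Aqp3, which passes water and glycerol, was lower in EpiLC in ethanol (-4.25 (SE 0.18, adjusted p = 5.59e-09)) and rose with tamoxifen in ESC (0.83 (SE 0.18, adjusted p = 0.0158)) and in EpiLC (0.72 (SE 0.18, adjusted p = 0.038)). Mfsd2a, a carrier of lysophospholipids outside the Slc symbols, was detected on 8 EpiLC arrays and 0 ESC arrays. Among partner proteins, Emb, the partner of monocarboxylate carriers, was higher in EpiLC in ethanol (3.08 (SE 0.16, adjusted p = 2.51e-08)). Pdzk1, a scaffold that binds carriers at the membrane, changed with tamoxifen by 2.51 (SE 0.17, adjusted p = 8.01e-05) in EpiLC and by 0.23 (SE 0.17, adjusted p = 0.45) in ESC; 1 of 3 arrays of ethanol EpiLC detected it, so the size in EpiLC depends on the background. The transferrin receptor Tfrc, which imports iron, was lower in EpiLC in ethanol (-0.70 (SE 0.12, adjusted p = 0.000284)). The iron exporter Slc40a1 and the iron importer Slc11a2 were both higher. Fth1, from the same list as Tfrc, was not called (0.17 (SE 0.09, adjusted p = 0.126)). The metallothioneins Mt1 (-0.88 (SE 0.17, adjusted p = 0.000792)) and Mt2 (-1.26 (SE 0.29, adjusted p = 0.00283)), which bind zinc, were lower in EpiLC.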
